A study of Mus musculus with 15 samples.

Results

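The respiratory chain genes described here are the 59 genes whose array name marks them as a nuclear-encoded subunit or assembly factor of mitochondrial complex I (the Ndufa, Ndufb, Ndufc, Ndufs, Ndufv and Ndufaf series), complex II (Sdha to Sdhd and the Sdhaf series) or complex III (names that start with Uqcr). The rule that chose them uses names and none of their values, but it was set with earlier results of these data known. They carried 93 of the 56605 probes and made up 59 of the 22342 genes tested. There were 36 complex I subunits, 7 complex I assembly factors, 4 complex II subunits, 4 complex II assembly factors and 8 complex III genes. All 59 were measured: each had a probe well above background on all 15 arrays.

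Mammary tumours were taken from mice with the MMTV-PyMT transgene, in which the MMTV promoter drives the polyoma middle T oncogene mainly in mammary epithelium. The 8 tumours of one group were from B6 mice and the 7 of the other from Wsh mice, all 20 weeks old and kept free of specific pathogens. Wsh is the usual name of the Kit W-sh allele, an inversion beside Kit, and homozygous adults lack mast cells. The series title asks what mast cells do to breast cancer cells, but the Wsh allele, the absence of mast cells and any other difference between the backgrounds cannot be told apart with these 2 groups. The whole tumour was used, so that fewer cells of a type and less RNA per cell cannot be told apart either. The labels do not say whether tumours shared a mouse, and p-values measure the spread between these tumours only.

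The electron transport chain sits in the inner mitochondrial membrane. Complex I takes electrons from NADH and complex II, which is also the succinate dehydrogenase of the citric acid cycle, takes them from succinate. Both pass them to ubiquinone, complex III moves them on to cytochrome c, and complexes I and III pump protons that drive ATP synthesis. Apart from a few complex I subunits and cytochrome b, which mitochondrial DNA encodes, the subunits are products of nuclear genes, and dedicated assembly factors insert cofactors and join the modules. In epithelial tumours the nuclear genes are often read together as a measure of oxidative metabolism. One gene named Ndufa4 is counted here with complex I by its name, although its protein is now known as a subunit of complex IV.

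Level below means log2 signal relative to the 75th percentile of the array, and a difference is Wsh minus B6 on that log2 scale given with its standard error (SE) from limma. That percentile was 3268 to 6337 intensity units in B6 tumours, 3513 to 4528 in Wsh tumours, and arrays correlated between 0.926 and 0.990 over genes. The labels name mammary tumours. All 13 listed luminal epithelium genes were measured, among them the keratins Krt8 and Krt18 and the adhesion protein Epcam. The mean level of this list was between 2.48 and 3.54 on every array. All 5 measured mast cell genes had a lower mean in Wsh, and 3 of them had an adjusted p under 0.05 in limma. These were Mcpt4, Cma1 and Kit (adjusted p in limma of 0.0005805, 0.005971 and 0.000208), of which Kit is the gene beside the Wsh inversion. The tumours also held other tissue: 5 arrays (B6 replicate 4 and Wsh replicates 1, 3, 4 and 5) had a mean of the skeletal muscle genes from 0.60 to 4.23, against -4.39 to -3.56 on the other 10. Wsh replicate 2 stood apart in the respiratory chain genes, so the counts of lower and higher means of the members, their classes and the mitochondrial lists are given without it as well.

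Promoters were examined because the 59 genes moved together from array to array (below), and because nuclear respiratory chain genes are known targets of NRF1, of ETS factors such as GABP and of YY1. RefSeq promoter windows (GRCm38.p6, 250 bases before to 50 after the start) matched 50 of the 59 genes, in 52 windows. The 5 stretches printed here run from 150 bases before to 30 after the start, 5′ to 3′. They were picked in order of mean correlation with the other members. Only genes with an NRF1, ETS or YY1 match in this stretch were taken, so each holds a match by choice. Members of higher correlation, such as Ndufb8 and Ndufb3, were passed over. Capitals mark exact matches on either strand to the NRF1 consensus of 10 letters (in Ndufb4, Ndufs5 and Ndufa8) or to the ETS letters CCGGAAG (in Ndufs8 and Uqcr11).
Ndufb4 (chr16:37654339-37654518, minus strand): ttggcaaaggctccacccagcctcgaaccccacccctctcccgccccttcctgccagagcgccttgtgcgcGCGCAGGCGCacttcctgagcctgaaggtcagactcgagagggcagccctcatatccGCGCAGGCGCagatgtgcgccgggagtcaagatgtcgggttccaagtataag
Ndufs5 (chr4:123718157-123718336, minus strand): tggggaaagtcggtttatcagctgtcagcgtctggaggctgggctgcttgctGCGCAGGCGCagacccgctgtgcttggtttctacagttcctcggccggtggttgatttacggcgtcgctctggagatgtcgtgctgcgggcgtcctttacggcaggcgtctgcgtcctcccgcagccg
Ndufs8 (chr19:3912745-3912924, minus strand): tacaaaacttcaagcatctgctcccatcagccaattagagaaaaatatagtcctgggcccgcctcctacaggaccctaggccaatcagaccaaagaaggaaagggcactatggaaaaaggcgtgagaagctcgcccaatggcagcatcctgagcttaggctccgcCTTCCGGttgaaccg
Ndufa8 (chr2:36049309-36049488, minus strand): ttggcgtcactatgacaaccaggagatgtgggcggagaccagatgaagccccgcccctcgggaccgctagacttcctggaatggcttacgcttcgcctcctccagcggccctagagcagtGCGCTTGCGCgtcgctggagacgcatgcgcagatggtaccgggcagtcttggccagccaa
Uqcr11 (chr10:80406792-80406971, minus strand): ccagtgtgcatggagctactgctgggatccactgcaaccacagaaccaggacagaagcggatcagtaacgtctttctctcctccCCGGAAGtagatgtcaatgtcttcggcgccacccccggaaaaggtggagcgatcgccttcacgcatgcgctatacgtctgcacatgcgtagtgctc
Ndufb4 thus carried the NRF1 letters at 2 places within the stretch shown, and a further match lay upstream of it. Exact NRF1 letters were present in 15 of the 52 windows (28.8%), against 4.60% of all 32851 windows of that length. ETS letters were in 12 of the 52 (23.1%, against 8.86%), and the YY1 letters ANATGGCGG in 7 (13.5%, against 1.86%). The ERR letters TCAAGGTCA were found in 1 window, that of Sdhd (1.92%, against 0.423%), and the cyclic AMP response letters TGACGTCA in 4 (7.69%, against 1.79%), those of Ndufa10, Ndufa11, Ndufb2 and Uqcrfs1. At least 1 of the NRF1, ETS and YY1 matches was present in 57.7% of the windows of these genes and in 13.9% of all windows. The windows were also richer in G and C (median 59.2%, against 52.7%) and in CpG (median 20.0, against 7.0 per window), which GC-rich letters follow. A match says only that the letters are there, not that a factor was bound in these tumours.

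No gene of the 59 passed the threshold between Wsh and B6 tumours (limma, adjusted p under 0.05), while 76 of the 22342 genes tested did (0.34%). At an unadjusted p under 0.05 there were 4 of 59 (6.78%), where 10.4% of all genes passed; the difference between these shares was not tested. None of the 59 had groups that did not overlap, against 0.367% of all genes. Of the means, 49 of the 59 were lower in Wsh and 10 higher, where 52.1% of all genes had a lower mean. The median difference was -0.065, against -0.009 for all genes. All differences lay between -0.24 and 0.13, and all 59 of the 95% intervals lay within a 1.5-fold change in either direction, with outer bounds of -0.55 and 0.30. The lower means rested in part on 1 tumour: without Wsh replicate 2 the count was 34 of 59 and the median difference -0.020, against -0.003 for all genes. The count also moved with the scaling: 41 were lower after quantile normalization, 40 in the deposited values, 48 with normexp and 57 when arrays were scaled by their median. The median difference was then -0.032, -0.034, -0.066 and -0.162, and median scaling itself shifted the median of all genes to -0.106. Leaving out the 5 arrays with muscle transcripts gave 53 of 59 lower means and a median of -0.174. That left 3 Wsh tumours, of which replicate 2 was 1, and without it the count was 35 and the median -0.035.

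**Figure D1:**
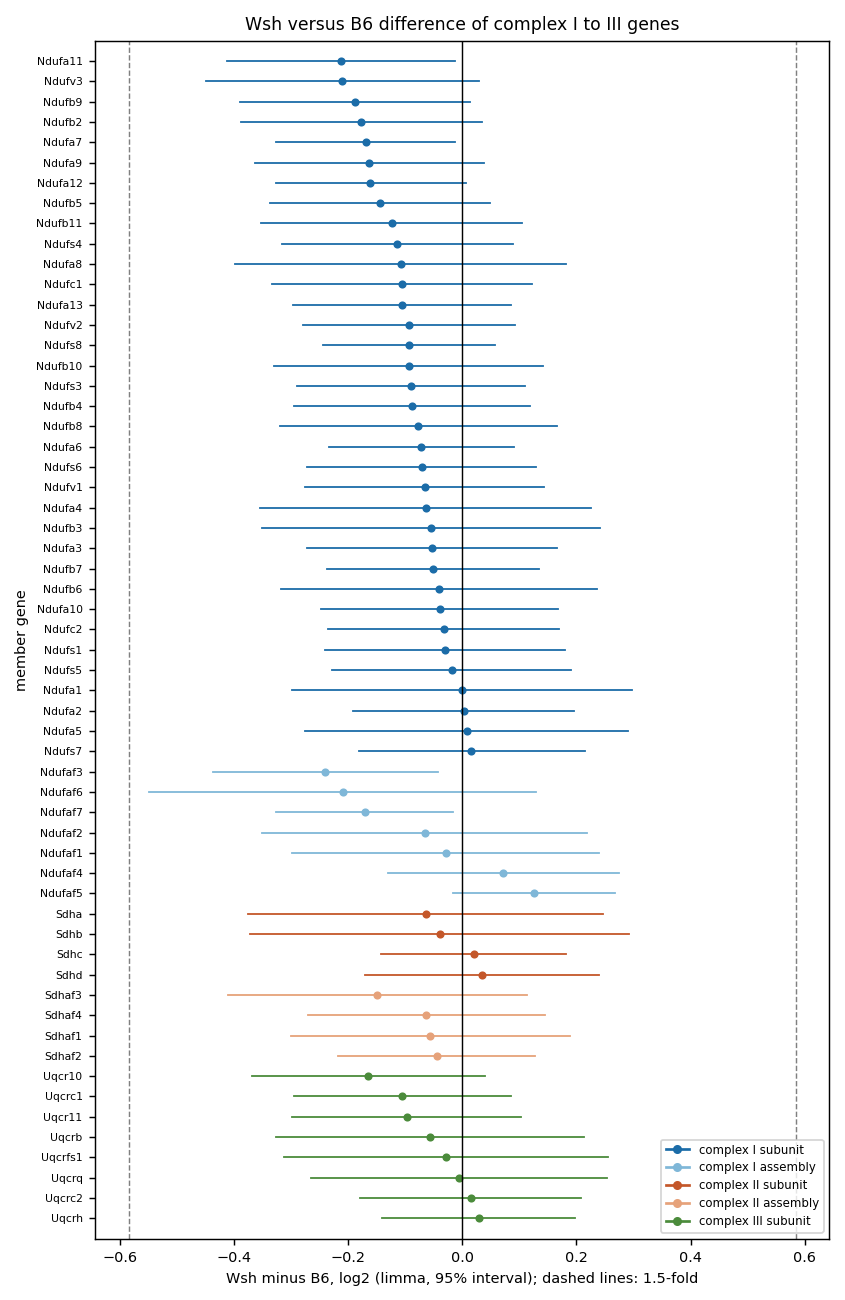
Difference of Wsh from B6 (x axis, log2) for 58 of the 59 genes (y axis), with the 95% interval of the limma fit and colour by class; dashed lines mark a 1.5-fold change. Most points lie left of 0, 54 of the intervals cross 0 and none reaches a dashed line.

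Among the complex I assembly factors, 5 of 7 had a lower mean in Wsh and 2 a higher one, and 3 and 4 without Wsh replicate 2. Ndufaf3, which acts with Ndufaf4 early in assembly (probe at chr9:108468692-108468899, mm9, minus strand), had B6 levels from -0.53 to -0.16 (median -0.39) and Wsh levels from -0.81 to -0.24 (median -0.57). The groups overlapped, and its difference of -0.24 (SE 0.092) was the most negative of the 59, with an adjusted p of 0.368 in limma. Ndufaf7, a mitochondrial protein methyltransferase (probe at chr17:79346307-79346366, mm9), ran from 1.40 to 1.70 in B6 (median 1.502), while its Wsh levels were 1.10 to 1.46 (median 1.38). The B6 median lay above the highest Wsh value, and the difference was -0.17 (SE 0.073, adjusted p 0.425 in limma). Its second probe gave -0.11. Ndufaf5, which hydroxylates an arginine of Ndufs7, was the member with the highest difference, 0.13 (SE 0.067, adjusted p 0.547 in limma). Its levels were -1.51 to -1.27 in B6 (median -1.36) and -1.37 to -1.11 in Wsh (median -1.28), so that the groups overlapped here too. Ndufaf6 varied most of the 59 over the 15 arrays (SD 0.322), from 0.067 to 1.04 in B6 (median 0.25) and from -0.27 to 0.57 in Wsh (median 0.048). Its highest value was that of B6 replicate 5, and its difference of -0.21 (SE 0.159) was less than its spread within B6 (SD 0.321). The other kept probes of Ndufaf6 gave -0.288 and -0.385, and the mean of its probes -0.294 (SE 0.143, adjusted p 0.478 in limma).

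Of the 36 complex I subunits, 32 had a lower mean in Wsh and 4 a higher one (27 and 9 after quantile normalization, 26 and 10 in the deposited values, 35 and 1 with median scaling). Without Wsh replicate 2 it was 24 lower and 12 higher. Among the 12 genes with the largest absolute t statistic, 8 were complex I subunits, a class that makes up 36 of the 59. All 8 had the lower mean in Wsh. Ndufa7, an accessory subunit of the arm that reaches into the matrix, had B6 levels of 4.68 to 5.12 (median 4.87) and Wsh levels of 4.60 to 4.78 (median 4.72). The difference was -0.17 (SE 0.074, adjusted p 0.442 in limma), and the B6 median lay above the highest Wsh value. For Ndufa11, an accessory subunit of the membrane arm, B6 levels were 1.29 to 1.93 (median 1.48) and Wsh levels 1.14 to 1.46 (median 1.35). B6 replicate 8 was highest, and the difference was -0.21 (SE 0.094, adjusted p 0.449 in limma).

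Ndufa12, which binds the matrix arm late in assembly, was at 3.96 to 4.22 in B6 (median 4.10) and at 3.62 to 4.04 in Wsh (median 3.99), a difference of -0.16 (SE 0.078). The lowest value was that of Wsh replicate 2, far below the next Wsh value of 3.90. Ndufb9, a membrane arm subunit of the LYR protein family, ran from 4.94 to 5.30 in B6 (median 5.13) and from 4.54 to 5.16 in Wsh (median 4.99), with a difference of -0.19 (SE 0.094). Ndufb2, a small membrane arm subunit, had B6 levels of 4.70 to 5.03 (median 4.85) and Wsh levels of 4.18 to 4.87 (median 4.76), and its difference of -0.18 (SE 0.099) again included a lone low value in Wsh replicate 2. Ndufv3, a small subunit of the NADH-oxidising module, was at 4.61 to 5.25 in B6 (median 4.92) and 4.35 to 5.02 in Wsh (median 4.73), with a difference of -0.21 (SE 0.112). Ndufa9, which sits near the ubiquinone site, gave -0.16 (SE 0.094), from 2.55 to 2.90 in B6 (median 2.79) and from 2.25 to 2.84 in Wsh (median 2.68). The membrane arm subunit Ndufb5 gave -0.14 (SE 0.091), from 4.10 to 4.47 in B6 (median 4.29) and 3.85 to 4.41 in Wsh (median 4.15). In each of these genes the groups overlapped and Wsh replicate 2 was the lowest of all arrays.

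The core subunit Ndufs8, which holds iron-sulfur clusters, and the LYR protein Ndufa6 were among the 4 genes that varied least. Ndufs8 had an SD of 0.109 over the arrays and a difference of -0.094 (SE 0.071). Ndufa6 had an SD of 0.119 and a difference of -0.072 (SE 0.077). At the other end, Ndufb3, a small membrane arm subunit, ran from 3.48 to 4.30 in B6 (median 3.80) and from 3.15 to 4.04 in Wsh (median 3.94). Its SD was 0.262 and its difference -0.055 (SE 0.140), a value that turned to 0.051 without Wsh replicate 2.

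The 4 complex II subunits split 2 and 2, with all 4 lower under median scaling and all 4 higher without Wsh replicate 2. The catalytic flavoprotein Sdha was at 3.44 to 4.37 in B6 (median 3.89) and 3.395 to 4.259 in Wsh (median 3.85), a difference of -0.064 (SE 0.146). Sdhb, the iron-sulfur subunit, ran from 4.06 to 4.89 in B6 (median 4.50) and from 3.77 to 4.74 in Wsh (median 4.54), a difference of -0.040 (SE 0.156). Both were among the 4 genes with the largest SD, 0.277 and 0.297, and their groups covered nearly the same range. The membrane anchors Sdhc and Sdhd had slightly higher means in Wsh, by 0.020 (SE 0.076) and 0.034 (SE 0.096). Sdhc ran from 2.40 to 2.73 in B6 (median 2.57) and from 2.51 to 2.82 in Wsh (median 2.59), one of the narrowest spreads of the 59 (SD 0.111). Sdhd was at 3.69 to 4.25 in B6 (median 4.11) and 3.78 to 4.28 in Wsh (median 4.12). Both anchors turned to the lower side with median scaling, to -0.077 and -0.063. All 4 assembly factors had a lower mean in Wsh under each of the 5 scalings and without Wsh replicate 2, none past the threshold. Not every setting kept this: without the arrays with muscle transcripts 3 were lower and 1 higher. On slide 1 without Wsh replicate 2 the split was 2 and 2. Sdhaf2, which helps to attach FAD to Sdha, gave -0.045 (SE 0.081), with levels of -0.32 to -0.055 in B6 (median -0.24) and -0.47 to 0.037 in Wsh (median -0.27). Sdhaf3, needed for the iron-sulfur clusters of Sdhb, gave -0.15 (SE 0.123), with levels of -1.68 to -1.19 in B6 (median -1.49) and -2.05 to -1.13 in Wsh (median -1.66).

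Among the 8 complex III genes, 6 had a lower mean in Wsh and 2 a higher one, but 4 and 4 in the quantile-normalized and deposited values. Without Wsh replicate 2 the majority turned, to 3 lower and 5 higher. Uqcr10, one of the small subunits, ran from 4.84 to 5.31 in B6 (median 5.11) and from 4.59 to 5.05 in Wsh (median 4.98). Its difference of -0.16 (SE 0.096) was the lowest of the complex, with an adjusted p of 0.598 in limma. Uqcrh, the hinge protein that contacts cytochrome c1, had the highest difference, 0.029 (SE 0.080), with levels of 5.36 to 5.85 in B6 (median 5.58) and 5.42 to 5.71 in Wsh (median 5.64). The core proteins Uqcrc1 and Uqcrc2 lay at -0.11 and 0.015, and the Rieske iron-sulfur protein Uqcrfs1 at -0.029.

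The probe chosen for a gene mattered for a few members. Of the 21 genes with more than 1 kept probe, 5 had kept probes on both sides of 0: Ndufa13, Ndufs1, Ndufs5, Sdha and Sdhaf2. Ndufa13, an accessory subunit also known as Grim19, gave -0.11 by its bright probe and 0.36 by a dim one that was well above background on 14 arrays. For Ndufs1, the largest core subunit, the values were -0.030 and 0.21, and for Ndufs5, an accessory subunit of the intermembrane face, -0.018 and 0.52. The 4 kept probes of Sdha ran from -0.064 to 0.075, and the 3 of Sdhaf2 from -0.088 to 0.12. In each gene the brightest probe, which represents the gene here, was at or below 0.

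From tumour to tumour the genes went up and down together. The mean Pearson correlation over all pairs of the 59 genes was 0.418 over the 15 arrays, against 0.016 for all pairs of genes tested, and this is a description of arrays that share scaling and tissue content. Without Wsh replicate 2 it was 0.251, against 0.017. Scaling moved it: the value was 0.320 after quantile normalization, 0.348 in the deposited values, 0.401 with normexp and 0.703 with median scaling, where all pairs had 0.131. The genes closest to the rest were complex I subunits: Ndufb8 had a mean correlation of 0.619 with the other members, Ndufa6 of 0.609 and Ndufb3 of 0.601. The least close was Sdhaf1, an assembly factor for the iron-sulfur clusters of Sdhb, at -0.084, followed by Ndufa10 at 0.125. Compared with other genes the members varied little between tumours, with a median SD of 0.172 against 0.303 for all genes. Among the 2961 genes at least as bright as the lower quartile of the members it was 0.206.

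**Figure D2:**
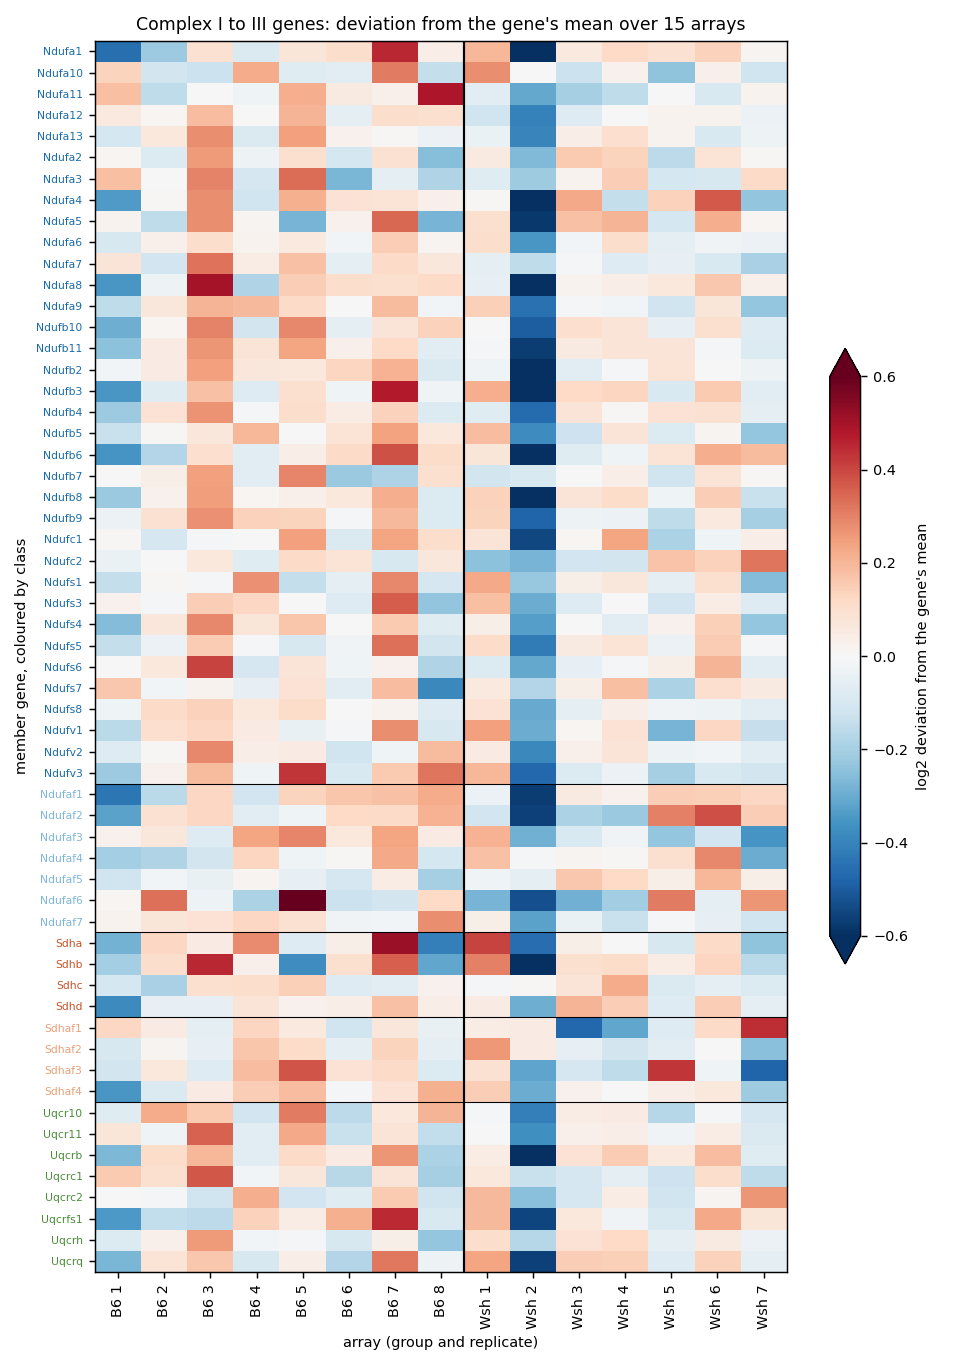
Log2 deviation of 58 of the 59 genes (rows, grouped by class) from their own means over the 15 arrays (columns, B6 left and Wsh right of the line). The column of Wsh replicate 2 is blue for most genes, and those of B6 replicates 3 and 7 are mostly red.

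Wsh replicate 2 had the lowest level of all 15 arrays in 41 of the 59 genes (69.5%), where 13.7% of all genes had theirs on that array. Its mean over the 59 genes was 3.11, and the other Wsh tumours ran from 3.42 to 3.55. The B6 tumours ran from 3.35 (replicate 1) to 3.63 (replicate 7), with a mean of 3.51 ± 0.095 (SD, n = 8), against 3.43 ± 0.151 (SD, n = 7) in Wsh. B6 replicates 3 and 7 held the highest level of 19 and 17 members (32.2% and 28.8%, against 15.9% and 7.21% of all genes). The low level of Wsh replicate 2 held under each of the 5 scalings, with a member mean of -0.24 to -0.54 relative to the average array, whereas the high level of B6 replicate 3 did not: it lay 0.14 above the average by the 75th percentile, 0.44 above by the median and at -0.022 after quantile normalization. The same tumour was lowest of all 15 in the means of the complex IV, complex V, mitochondrial ribosome and citric acid cycle lists, and highest in the list of glycolysis and hypoxia genes (3.83, where the lowest array had 3.25). Its mean of genes encoded by mitochondrial DNA was 4.41, within the range of the others (4.01 to 4.68). The share of spots well above background on it, 65.1%, was within the range of the rest, and its fibroblast list mean of 2.38 was the second lowest. The part of these in its low member values was not tested.

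**Figure D3:**
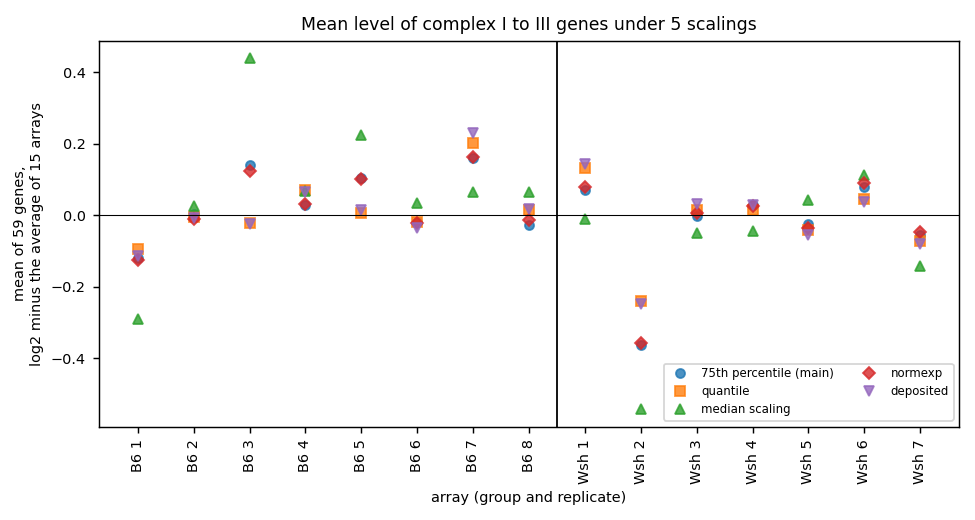
Mean of the 59 genes on each array, in log2 relative to the average of the 15 arrays, under 5 scalings (symbols), with B6 left and Wsh right of the line. Wsh replicate 2 is lowest under all 5, and B6 replicate 3 shifts from 0.44 to -0.025 with the scaling.

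The genes outside the 59 whose level was most like the member mean, by Pearson correlation over 15 arrays, were led by the tRNA methyltransferase gene Trmt2b (0.956, and 0.872 without Wsh replicate 2). They included 2 subunits of complex IV, Cox7a2 (0.939 and 0.819) and Cox6c (0.913 and 0.815). Of the other 7, Sumf1, Gm6444, AI646519, Gm4890 and Smyd1 lay between 0.911 and 0.926, and the remaining 2 had no symbol. By list, the median correlation with the member mean was 0.738 for complex V, 0.696 for complex IV, 0.579 for citric acid cycle enzymes and 0.503 for mitochondrial ribosomal proteins. It was 0.142 for 13 regulators of mitochondrial genes, 0.005 for the 11 measured genes of mitochondrial DNA and -0.006 for all other genes. Without Wsh replicate 2 the order changed, with 0.470 for citric acid cycle enzymes, 0.454 for complex V, 0.386 for complex IV and 0.282 for mitochondrial ribosomal proteins.

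The other genes of oxidative phosphorylation likewise held no call between Wsh and B6 in limma. In complex IV, cytochrome c oxidase, 4 of 15 measured genes had a higher mean and 11 a lower one (median difference -0.040). In complex V, the ATP synthase, the split was 2 and 14 (median -0.064), with Atp5h at -0.15 (SE 0.117). Mitochondrial ribosomal proteins split 13 and 62 (median -0.064), and Mrps34 came nearest to a call at -0.25 (SE 0.076, adjusted p 0.228 in limma). Mrpl35 had the largest difference of that list, -1.93 (SE 0.627, adjusted p 0.272 in limma). These splits moved with the scaling as those of the members did: after quantile normalization they were 7 and 8, 4 and 12, and 26 and 49. Without Wsh replicate 2 they were 7 and 8, 8 and 8, and 24 and 51. Other assembly factors and carriers of complexes I to III split 8 and 8 (2 and 14 with median scaling, 7 and 9 without Wsh replicate 2), with Uqcc1, an assembly factor of complex III, at -0.16 (SE 0.083). The citric acid cycle split 7 and 9, but 9 and 7 after quantile normalization, 1 and 15 with median scaling and 10 and 6 without Wsh replicate 2. Idh3g, a subunit of isocitrate dehydrogenase, lay at -0.16 (SE 0.076, adjusted p 0.471 in limma).

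Genes of mitochondrial DNA split 5 higher and 6 lower, with a median difference of -0.002. The split was 8 and 3 in the quantile and deposited values, 1 and 10 with median scaling and 6 and 5 without Wsh replicate 2. ND6, a complex I subunit from that genome, had the largest, 0.43 (SE 0.197, adjusted p 0.4664 in limma), and ND1 lay at -0.16 (SE 0.155). Of the regulators, Esrrg, a nuclear receptor that drives oxidative genes in muscle and heart, was at -0.45 (SE 0.154, adjusted p 0.298 in limma). Nrf1, whose binding letters were counted above, lay at -0.22 (SE 0.126), and the coactivator Ppargc1a at 0.28 (SE 0.291). No regulator passed the threshold. The glycolysis and hypoxia list split 3 higher and 12 lower, 7 and 8 after quantile normalization, and 4 and 11 without Wsh replicate 2.

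Skeletal muscle is rich in mitochondria, and 4 of the 5 arrays with its transcripts were Wsh. The complex I to III genes did not set these arrays apart: their mean level ran from 3.45 to 3.54 on the 5 and from 3.11 to 3.63 on the other 10. By contrast Cox6a2, the complex IV subunit form of striated muscle, was at -0.23 to 3.13 on the 5 and at -5.12 to -3.57 on the others. Its ubiquitous counterpart Cox6a1 stayed between 6.43 and 6.57 on the 5, inside the 6.09 to 6.76 of the others. Cox7a1, another form found in muscle, overlapped between the arrays (0.52 to 1.90, against -0.30 to 0.76), as did Cox8b (0.40 to 3.56, against -0.47 to 3.35). These pairs of forms were singled out after their values had been seen. Between Wsh and B6 the Cox6a2 difference was 2.86 (SE 1.162, adjusted p 0.399 in limma).

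**Figure D4:**
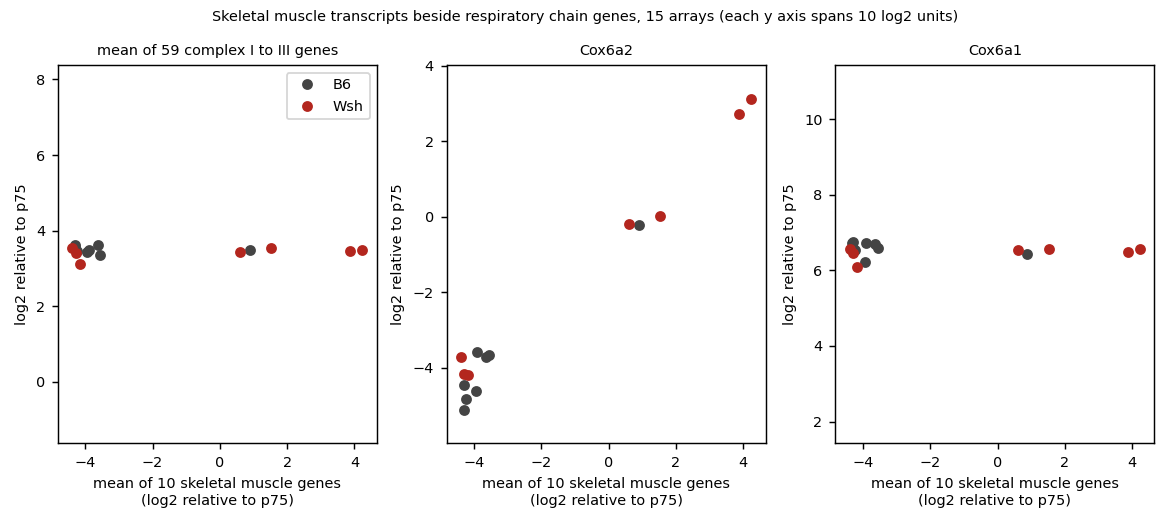
Mean level of the 59 complex I to III genes, of Cox6a2 and of Cox6a1 (y axes, log2 relative to the 75th percentile, each spanning 10 units) against the mean of 10 skeletal muscle genes (x axis) on each array, coloured by group. Cox6a2 is at -0.23 or above on the 5 arrays with muscle transcripts and at -3.57 or below on the rest, and the member mean stays between 3.11 and 3.63.

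Whether a gene followed tissue content was tested with limma in 4 fits that held group and the mean of 1 list: luminal epithelium, adipocyte, macrophage or proliferation. The list means themselves ran from 2.48 to 3.54, from -1.16 to 4.64, from 0.23 to 1.83 and from 1.17 to 2.13. Many genes followed the first 3: 15.8% of all genes were called with luminal epithelium, 15.9% with adipocyte and 7.6% with macrophage, and 0.515% with proliferation. Of the 59 members, 0, 1, 0 and 0 were called. At an unadjusted p under 0.05 there were 6, 8, 3 and 0 members, or 10.2%, 13.6%, 5.08% and 0%. The shares of all genes were 31%, 31.3%, 27% and 6.56%. The 1 call was Ndufa10, an accessory subunit of the membrane arm, whose level rose by 0.090 (SE 0.028, adjusted p 0.0404 in limma) for each log2 unit of the adipocyte mean. It was at 2.71 to 3.16 in B6 (median 2.78) and at 2.61 to 3.13 in Wsh (median 2.85), highest on B6 replicate 7. When p-values were adjusted over the 4 fits together no member was called. Within slide 1 its slope was 0.067 (SE 0.043, adjusted p 0.435 in limma), and within slide 2 it was 0.12 (SE 0.045, adjusted p 0.196 in limma).

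These counts depended on the scaling. With quantile normalization 12 members were called with luminal epithelium and 9 with adipocyte, and with the deposited values 9 and 9. For luminal epithelium that was 20.3% of the members against 15.4% of all genes in the quantile values, and for adipocyte 15.3% against 15.5%. In the deposited values it was 15.3% for both, against 14.8% and 15.6% of all genes. Sdha was called in both lists: with the quantile values its slope was -1.07 (SE 0.2, adjusted p 0.00410 in limma) per unit of the luminal epithelium mean and 0.16 (SE 0.034, adjusted p 0.00754 in limma) per unit of the adipocyte mean. By the 75th percentile the same slopes were -0.74 (SE 0.246, adjusted p 0.0557 in limma) and 0.13 (SE 0.043, adjusted p 0.0556 in limma). With median scaling 35.1% of all genes followed luminal epithelium, and 5 members (8.47%) were called there. These were Ndufa3, Ndufa7, Ndufb7, Ndufc2 and Ndufs6, none of which was called in the quantile or deposited values. The Sdha slope with median scaling was -0.18 (SE 0.267, adjusted p 0.613 in limma). Ndufs1, Ndufs3, Ndufv1, Uqcrc2 and Uqcrfs1 were called with both lists in the quantile and deposited values and with neither by the 75th percentile. The adipocyte count also depended on single arrays and was 6 without B6 replicate 3 (10.2%, against 17.4% of all genes), 2 without B6 replicate 1 (3.39%, against 16.0%) and 0 without any of B6 replicates 4, 5, 7 and 8 or Wsh replicates 1, 4, 5 and 7, where 7.3% to 15.7% of all genes were called.

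**Figure D5:**
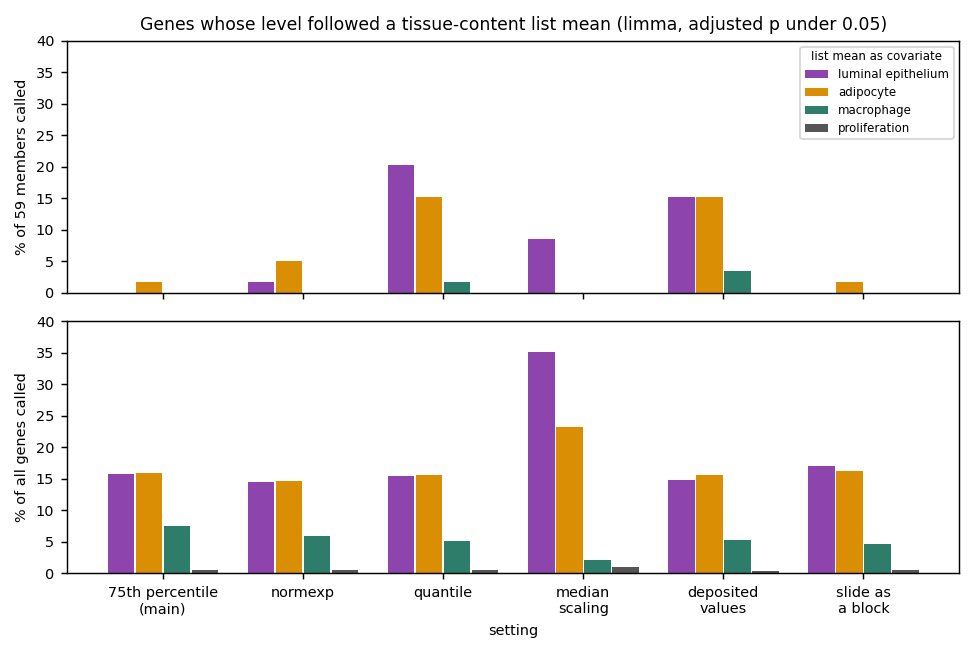
Share of the 59 members (top) and of all 22342 genes (bottom) called with each list mean as covariate (limma, adjusted p under 0.05; colours), under 6 settings. Members called with luminal epithelium number 0 by the 75th percentile and 12 with quantile normalization.

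Between the groups the lists moved as follows, none of the 4 with a call. All 13 luminal epithelium genes had a lower mean in Wsh, 11 of them after quantile normalization (median -0.126, list means 2.69 to 3.54 in B6 and 2.48 to 3.17 in Wsh), and all 12 macrophage genes a higher one (median 0.42, 0.23 to 1.81 and 0.91 to 1.83). Of the adipocyte genes 12 of 14 were higher (median 0.60, -1.16 to 4.64 and 1.59 to 4.27). Proliferation genes split 6 and 7, and 3 and 10 with median scaling. With the skeletal muscle and adipocyte means in the fit, 54 of the 59 members had a lower mean in Wsh and 0 passed the threshold, and without Wsh replicate 2 the count was 33. The part of the luminal epithelium and macrophage shifts in the group difference of the members was not tested.

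Each of the 2 slides held tumours of both groups. No member's Wsh versus B6 difference was called as differing between the slides (limma interaction, 0.00895% of all genes called), with 1 member at an unadjusted p under 0.05 and a lowest adjusted p of 0.751. The count of lower means in Wsh was 46 of 59 on slide 1 and 42 on slide 2, with 49 when slide was a block. Without Wsh replicate 2 it was 25 on slide 1, with 34 higher, and 34 with slide as a block.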

How the data were processed

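Total RNA of 15 tumours (8 B6, 7 Wsh) was amplified, Cy3-labelled and measured on 1-colour Agilent arrays, per the labels' protocols. Per the file headers, the authors read spots with Agilent Feature Extraction, and the processed intensity is corrected for background and trend within each array only. Agilent Feature Extraction 10.7.3.1 and limma are the tools in the submitters' processing notes. The deposited log2 table has column medians of 8.605 to 8.608, each column followed its own array's signals best (Spearman 0.9992 to 0.9995), and no source used here gives its background step, normalization or centring. It served as an alternative only.

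Control spots and outlier flags were left out of the 62976 spots per array, spots of 1 probe were averaged, and log2 signals were centred on each array's 75th percentile. Probes well above background on at least 7 arrays were kept, and the kept probe of highest mean stood for a gene. Names came from a RefSeq table of GRCm38 where it held them, probe positions are those of the files (mm9), and no exon annotation of that build was used. A gene named 1810043H04Rik on the array, now Ndufaf8, is not a member by the rule. The groups were compared in limma 3.58.1 (R 4.3.3; lmFit, eBayes, two-sided) with Benjamini-Hochberg adjustment over all 22342 genes, of which 35 lacked a value on some array and were fitted on the rest. Covariate fits held group and 1 list mean. The values of 1 member are not reported here, though it is counted with the rest. Scripts were tested on simulated data. Figures used matplotlib 3.10.9.

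Members and lists were chosen with earlier results of these data known. Members named were those past a threshold, the 12 with the largest absolute t, the extremes of each class and of SD (4 each way) and those with probes of opposite sign; outside them, the 10 genes most like the member mean and up to 4 per mitochondrial list. Other settings were normexp (offset 50), quantile and median scaling, the deposited values, filters, the probe mean, slide, replicate block, array weights, trend and robust options, tissue covariates and leaving out arrays. Added after seeing the data were the counts, also by class and list, and correlations without Wsh replicate 2, the count of lower means under each setting, and each slide alone and median scaling in the covariate fits. Promoter matches were exact letters on both strands. The number of arrays limits the precision.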

Additional observations from a re-analysis of the deposited data

Results flagged for a closer look

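In 58 groups checked (the named members and the member mean, in B6 and in Wsh), 9 held a tumour far from the rest of its group. In these 9 the gap to the nearest tumour was 0.597 to 0.78 of the range of the group. Chance alone gives such a tumour in about 1 in 20 unselected groups. The named members were picked from these same values and move together, so that rate cannot be set against the 9. Wsh replicate 2 was the far tumour in 8 of the 9, and since the members move together these are not 8 separate observations. Its mean over the 59 genes was 3.109, where the next Wsh tumour had 3.415 and the highest 3.55. The same low tumour stood apart in Ndufa12 (3.616, next 3.9), Ndufa13 (5.256, next 5.56), Ndufa6 (4.242, next 4.532), Ndufb2 (4.178, next 4.717), Ndufb3 (3.154, next 3.731), Ndufs5 (4.157, next 4.543) and Ndufs8 (3.257, next 3.49), all of them complex I subunits. In Sdhd, a membrane anchor of complex II, B6 replicate 1 was low at 3.691, where the next B6 tumour had 4.025 and the highest 4.25.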

How the results depend on the processing

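No member passed the threshold between Wsh and B6 under any of the 30 other settings, and the lowest adjusted p in any of them was 0.107 in limma. With each array left out in turn, the count of lower means ran from 34 (without Wsh replicate 2) to 53, and the median difference from -0.094 to -0.020. Deviations of B6 and Wsh tumours with the same replicate number correlated between -0.242 and 0.211. These values alone cannot show whether the numbers paired the tumours, and the labels do not say. With a replicate block 52 of 59 means were lower, 0 members were called and Uqcrh turned to -0.003.

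Of the 28 members that the naming rule took, 16 kept the side of their difference under all 30 settings, and the others, none of them called, turned as follows. With quantile normalization Ndufa10 was at 0.006, Ndufs1 at 0.014, Ndufs5 at 0.027 and Sdhb at 0.003. With median scaling Sdhc was at -0.077, Sdhd at -0.063 and Uqcrh at -0.068. In the deposited values Ndufa10 was at 0.006, Ndufb3 at 0.007, Ndufs1 at 0.003, Ndufs5 at 0.035 and Sdhb at 0.012. The mean of a gene's probes gave Ndufa13 0.128, Ndufs1 0.087, Ndufs5 0.253 and Sdha 0.003. Slide 1 alone gave Ndufa10 0.015, Ndufb3 0.03, Sdhaf2 0.028 and Uqcrh -0.012, and slide 2 alone Ndufaf6 0.008, Ndufs5 0.01, Sdhb 0.06, Sdhc -0.08 and Sdhd -0.064. Array weights gave Ndufb3 0.053, Ndufs5 0.041 and Sdhb 0.004. Muscle and adipocyte covariates gave Sdhc -0.039, Sdhd -0.037 and Uqcrh -0.013, and leaving out the arrays with muscle -0.019, -0.036 and -0.038. With each array left out, Ndufa10 ran from -0.091 to 0.001, Ndufb3 from -0.109 to 0.051, Ndufs1 from -0.071 to 0.01, Ndufs5 from -0.045 to 0.05, Sdha from -0.138 to 0.006, Sdhb from -0.096 to 0.067, Sdhc from -0.015 to 0.042, Sdhd from -0.018 to 0.086 and Uqcrh from -0.003 to 0.067. The cause was not tested.

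In the covariate fits, called members with luminal epithelium (0 by the 75th percentile) were 12 with quantile normalization, 9 in the deposited values, 5 with median scaling, 1 (Sdha) with normexp and 0 to 1 with an array left out. The shares of all genes called under the first 4 were 15.4%, 14.8%, 35.1% and 14.5%. With adipocyte (1 by the 75th percentile) they were 9, 9, 0 and 3 (all genes: 15.5%, 15.6%, 23.2% and 14.6%), 0 on each slide alone and 0 to 6 with an array left out. With macrophage they were 1 (Ndufa10) with quantile normalization (5.16% of all genes) and 2 (Ndufa10 and Uqcrc2) in the deposited values (5.34%), otherwise 0. Proliferation and the difference between the slides gave 0 throughout.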
